A study of Mus musculus with 4 samples.

Results

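The nuclear genes of oxidative phosphorylation were taken as the protein-coding genes on chromosomes 1 to 19 of the GENCODE M21 annotation (mouse build GRCm38) whose symbols start with Ndufa, Ndufb, Ndufc, Ndufs, Ndufv, Sdh, Uqcr, Cox4, Cox5, Cox6, Cox7, Cox8 or Atp5, leaving out the Ndufaf genes. This gave 87 gene entries, with 86 symbols, of 20807 protein-coding genes. By complex there were 34 genes for complex I, 8 for complex II, 8 for complex III, 19 for complex IV and 18 for complex V. Of the 87 entries, 80 encode structural subunits. The other 7 are the 4 assembly factors Sdhaf1 to Sdhaf4, the supercomplex factor Cox7a2l, the Ndufa4 relative Ndufa4l2, and Atp5s. A second Atp5o entry spans the neighbouring gene Itsn1 and has no complete coding transcript, so lengths were available for 86 entries. X-linked subunit genes such as Ndufa1 lie outside the rule.

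RNA bound by the m6A reader proteins IGF2BP2, YTHDF2 and YTHDC1 was immunoprecipitated from cultured mouse bone marrow cells labelled lin-ckit+, with 1 library per protein and 1 input library. The titles name the cells LIC, a term that is not explained there. No strain, age or genotype is stated, and the protocols describe culture with IL3, IL6 and SCF, ultraviolet crosslinking and sonication. The peak list of IGF2BP2 has 7069 entries, that of YTHDF2 2834 and that of YTHDC1 9963, and the input was not analysed here.

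With 1 library per reader, readers could not be compared by any test across samples. Intervals are exact binomial (Clopper-Pearson) 95% intervals and cover counting error only, and peaks of the same gene are not independent of each other. Library totals are not in the files used, so depth is unknown. Transcript abundance was not measured either, so a gene with no peak cannot be told apart from a gene with little RNA. As a check of the cell label, peaks lay in 2 (IGF2BP2), 1 (YTHDF2) and 4 (YTHDC1) of 7 progenitor markers. The YTHDC1 genes were Kit, Myb, Meis1 and Gata2, while Cd34, Flt3 and Hoxa9 had no peak in any list. Peaks lay in 0 of 4 T cell, 0 of 3 B cell and 0 of 4 erythroid markers in each list. Granulocyte and macrophage markers had peaks in 2 (Itgam and Csf1r), 1 (Csf1r) and 1 (Itgam) of 5. Of 2 megakaryocyte markers 1, Itga2b, had a peak in the IGF2BP2 and YTHDC1 lists. YTHDC1 also had peaks in 2 of 4 stromal and endothelial markers, Col1a2 and Pecam1.

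Oxidative phosphorylation is carried out by protein complexes of the inner mitochondrial membrane. Complexes I, III and IV pass electrons from NADH to oxygen and pump protons, complex II feeds in electrons from succinate, and complex V, the ATP synthase, uses the proton gradient to make ATP. Most of their subunits are encoded in the nucleus, translated in the cytosol and imported. The mark m6A is a methyl group on adenosines of RNA, most often in a GGAC-like sequence; IGF2BP2 is known to stabilise marked mRNAs, YTHDF2 to promote their decay, and YTHDC1 to act on them in the nucleus.

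The sequences below are the spliced transcript sequences around the summits (the highest points) of member peaks, and they are shown because these genes carry the patterns of sharing and spacing described later. Ndufv3, Cox5b and Cox4i1 stand for sites where peaks of several readers coincide. Sdhd stands for a gene where they lie apart, and Atp5b for one where only the YTHDC1 peak does. Ndufa5 stands for a peak of YTHDC1 alone and Cox7a2l for a site in a 3′ UTR. The sequences were read from the GENCODE M21 transcripts of GRCm38, 5′ to 3′ on the strand of the gene. They lie within 50 nt on each side of the summit for coding sequence and 14 nt for the 3′ UTR of Cox7a2l. Capitals mark GGAC. Ndufv3 and Cox7a2l lie on chromosome 17, Cox5b on 1, Cox4i1 on 8, Atp5b on 10, Sdhd on 9 and Ndufa5 on 6. Ndufv3, Cox5b, Cox4i1 and Atp5b are on the plus strand and Sdhd, Ndufa5 and Cox7a2l on the minus strand.
Ndufv3 at the YTHDC1 summit: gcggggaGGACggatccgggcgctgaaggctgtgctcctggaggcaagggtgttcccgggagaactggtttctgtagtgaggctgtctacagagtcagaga
Cox5b at the YTHDF2 summit: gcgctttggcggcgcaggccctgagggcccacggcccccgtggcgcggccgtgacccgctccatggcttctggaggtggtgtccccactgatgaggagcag
Cox4i1 at the IGF2BP2 summit: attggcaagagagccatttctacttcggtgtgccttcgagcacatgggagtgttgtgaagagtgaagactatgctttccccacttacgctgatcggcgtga
Atp5b at the YTHDC1 summit: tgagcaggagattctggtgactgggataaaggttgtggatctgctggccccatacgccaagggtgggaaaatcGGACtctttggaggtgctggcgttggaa
Atp5b at the YTHDF2 summit: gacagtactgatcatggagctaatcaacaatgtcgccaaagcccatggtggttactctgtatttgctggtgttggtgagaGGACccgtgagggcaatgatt
Atp5b at the IGF2BP2 summit: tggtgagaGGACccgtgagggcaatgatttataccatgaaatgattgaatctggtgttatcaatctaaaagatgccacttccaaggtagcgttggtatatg
Sdhd at the YTHDF2 summit: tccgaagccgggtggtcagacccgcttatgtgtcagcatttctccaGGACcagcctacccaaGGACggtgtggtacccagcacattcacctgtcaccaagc
Sdhd at the YTHDC1 summit: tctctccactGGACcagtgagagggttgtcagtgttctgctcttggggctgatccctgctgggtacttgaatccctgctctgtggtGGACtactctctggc
Ndufa5 at the YTHDC1 summit: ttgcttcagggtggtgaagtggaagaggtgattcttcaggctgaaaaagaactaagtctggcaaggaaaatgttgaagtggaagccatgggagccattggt
Cox7a2l at the IGF2BP2 summit: cagccgtgctcagggcctcgGGACtcagg
Cox7a2l at the YTHDC1 summit: gcggtgtctgagcgggaagcgaagcgcgg
The Atp5b window at the YTHDF2 summit and the one at the IGF2BP2 summit share the same GGAC, while the one at the YTHDC1 summit holds another, followed by T. The 2 Sdhd windows hold 2 GGAC each, and the Cox5b, Cox4i1 and Ndufa5 windows hold 0. For Cox7a2l at the YTHDC1 summit, a GGAC lies 22 nt upstream, outside the short stretch printed.

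At least 1 peak summit of any reader lay in 22 of the 87 genes (25.3%, 95% interval 16.6% to 35.7%), against 23.9% of all 20807 protein-coding genes. IGF2BP2 had peaks in 10 of the 87 (11.5%, 5.65% to 20.1%), against 12.8% of all genes. YTHDF2 also had peaks in 10 (11.5%, 5.65% to 20.1%), against 7.20%. YTHDC1 had peaks in 17 (19.5%, 11.8% to 29.4%), against 19.9%. All 3 readers had a peak in 5 genes (5.75%, 1.89% to 12.9%), against 5.02% of all genes. Each of these backgrounds lies inside the interval of the oxidative phosphorylation genes, so the counts of bound genes say nothing particular about the set.

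**Figure D1:**
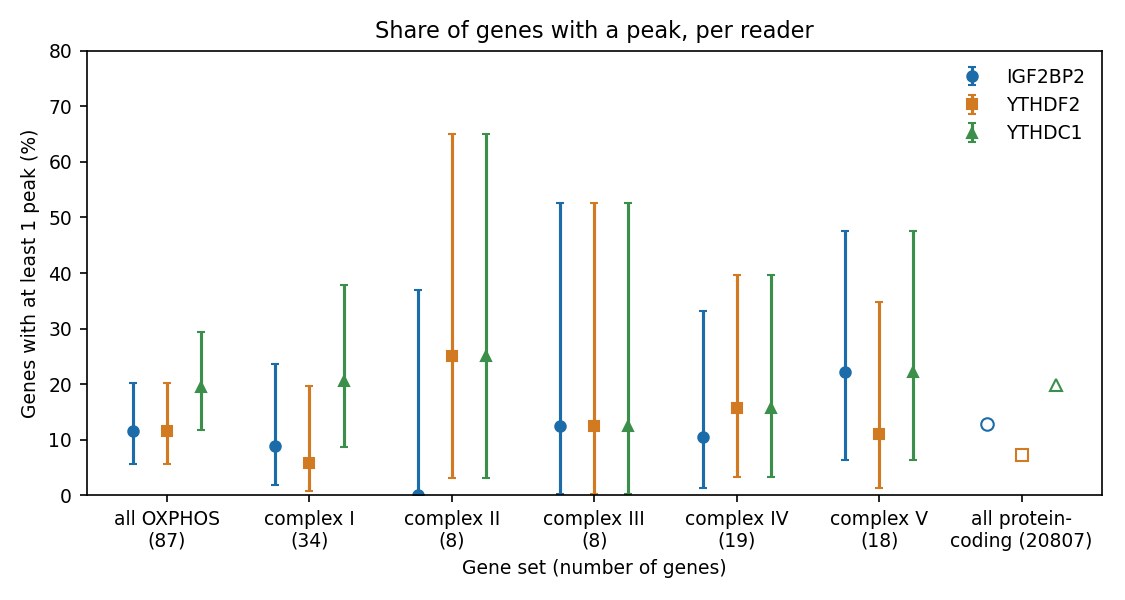
Percent of genes with at least 1 peak summit for each reader, for the oxidative phosphorylation genes and each complex (filled) and for all protein-coding genes (open), with exact binomial 95% intervals. The filled value of the whole set is 11.5% for IGF2BP2, 11.5% for YTHDF2 and 19.5% for YTHDC1, beside 12.8%, 7.20% and 19.9% of all genes, and the intervals of single complexes are wide.

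Oxidative phosphorylation mRNAs were short beside those of other genes. Their spliced main transcripts, taken as the longest transcript with a complete coding sequence, had a median of 787 nt (351 to 4715 nt), against 2595 nt over all protein-coding genes. The 22 genes with a peak had a median of 1180 nt and the 64 without one 693.5 nt. Within the interquartile range of the members' own lengths, 595 to 1436.25 nt, 11 of 42 oxidative phosphorylation genes had a peak of any reader (26.2%, 13.9% to 42.0%), against 11.0% of the 3816 protein-coding genes of that length. By reader, the 42 genes held 5 with an IGF2BP2 peak (11.9%, 3.98% to 25.6%), against 4.53%, and 4 with a YTHDF2 peak (9.52%, 2.66% to 22.6%), against 3.22%. With YTHDC1 there were 9 (21.4%, 10.3% to 36.8%), against 8.70%, and with all 3 readers 2 (4.76%, 0.582% to 16.2%), against 1.62%. The intervals for any reader and for YTHDC1 lie above the shares of genes of like length, and those for IGF2BP2, YTHDF2 and all 3 readers include them. The genes of like length were not filtered by expression. Transcript abundance was not measured, and its part in these differences was not tested. For IGF2BP2 and YTHDC1 the share over all 87 members was near that of all genes, which lay inside its interval. Of the 22 genes longer than that range 10 had a peak, and of the 22 shorter ones 1, the Uqcr11 gene.

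Complex I, which oxidises NADH, had peaks in 8 of its 34 genes (23.5%, 10.7% to 41.2%), against 23.9% of all genes. By reader these were 3 with IGF2BP2, 2 with YTHDF2 and 7 with YTHDC1. Of its 7 core subunits, which carry the flavin and the iron-sulfur clusters or line the path to quinone, 3 had a YTHDC1 peak, 1 a YTHDF2 peak and 0 an IGF2BP2 peak. Of the 27 accessory subunits 5 had a peak (18.5%, 6.30% to 38.1%). The YTHDC1 share of the core subunits was 42.9% (9.90% to 81.6%), against 19.9% of all genes. Each of these intervals includes the share of all genes.

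Ndufv3, an accessory subunit of the NADH-oxidising module (ENSMUSG00000024038.17), was the complex I gene with peaks of all 3 readers. They lay at chr17:31521536-31521635 for IGF2BP2, chr17:31521580-31521679 for YTHDF2 and chr17:31521525-31521649 for YTHDC1, in the coding sequence of exon 2 of 4. The pileup, the authors' height of the read signal at the summit, was 3 in the IGF2BP2 list, 3 in the YTHDF2 list and 6 in the YTHDC1 list. Their fold, the authors' ratio of that pileup to the local background, was 3.94, 3.96 and 6.87 in the same order. The 3 summits lay 70 to 74 nt after the first base of the start codon, within 4 nt of each other. The peaks are thus in the same place but are low, and the GGAC of this window lies upstream of the summits.

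Ndufa5, an accessory subunit of the arm that faces the matrix, had the highest fold of complex I. Its YTHDC1 peak, at chr6:24518732-24518896 in exon 5 of 5, reached a fold of 9.53 at a pileup of 9, with a −log10 q of 15.6. Its summit lay 90 nt before the end of the stop codon. Ndufs1, the largest iron-sulfur subunit, had a YTHDC1 peak with a pileup of 6 and a fold of 6.87 in exon 8 of 19. Ndufv1, which binds NADH and the flavin, had a YTHDF2 peak in exon 7 (pileup 3, fold 3.96) and a YTHDC1 peak in exon 2 (pileup 3, fold 3.93), at separate places. Ndufs3, a core subunit, had a YTHDC1 summit in an intron, 293 bp from the gene start (pileup 4, fold 4.86).

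Ndufs4, an accessory subunit whose loss in mice is a model of Leigh syndrome, had no summit in an exon of its main transcript. Its IGF2BP2 peak (pileup 4, fold 4.93) lay in the 3′ UTR of an alternative transcript and its YTHDC1 peak (pileup 3, fold 3.90) in an intron. The accessory subunit Ndufa8 had a YTHDC1 summit 10 nt after the start of its coding sequence, with a pileup of 4 and a fold of 4.91. Ndufb7, an accessory subunit of the membrane arm, had an IGF2BP2 peak in its last exon with a pileup of 3 and a fold of 3.90. The peaks of Ndufs4, Ndufa8 and Ndufb7 thus had a pileup of 4 or less.

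Complex II, succinate dehydrogenase, had peaks in 3 of its 4 subunit genes (75%, 19.4% to 99.4%). It had peaks in 0 of its 4 assembly factor genes (up to 60.2%), and both intervals include the 23.9% of all genes. Of its 8 genes 0 had an IGF2BP2 peak (a share of up to 36.9% by the exact interval), against 12.8% of all genes. Sdhb, the iron-sulfur subunit, had none. Sdhd, a membrane anchor, had a YTHDF2 peak at chr9:50600565-50600664 in exon 2 (pileup 3, fold 3.96) and a YTHDC1 peak at chr9:50598775-50598904 in exon 3 (pileup 5, fold 5.89). The 2 summits lay 111 and 236 nt after the start of the coding sequence and the peaks did not overlap. Sdhc, the other anchor, had a YTHDC1 peak in the 3′ UTR with a pileup of 6 and a fold of 6.78. Sdha, the subunit that carries FAD, had an intronic YTHDF2 peak with a pileup of 4 and a fold of 4.93.

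Complex III, which passes electrons from quinol to cytochrome c, had peaks in 3 of its 8 genes, each with a different reader. This share was 37.5% (8.52% to 75.5%), against 23.9% of all genes. Uqcrb, Uqcrfs1 (the Rieske iron-sulfur protein), Uqcrh, Uqcrq and Uqcr10 had none. Uqcrc2, a core protein on the matrix side, had the highest pileup and fold of the complex, 17 and 9.06, at chr7:120635457-120635588 in the YTHDC1 list. This summit lay in an exon of an alternative noncoding transcript, in intron sequence of the main one, 327 bp from the gene start. Uqcrc1, the other core protein, had a YTHDF2 peak in exon 5 of 13 with a pileup of 4 and a fold of 4.92. Uqcr11, a small subunit, had an IGF2BP2 peak in exon 1 with a pileup of 4 and a fold of 4.92, and its window matched the pseudogene Gm16418 over 50 nt exactly.

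Complex IV, cytochrome c oxidase, had peaks in 3 of its 19 genes (15.8%, 3.38% to 39.6%), against 23.9% of all genes. Of these, 2 had peaks of all 3 readers (10.5% of the 19, 1.30% to 33.1%), against 5.02% of all genes. Its catalytic subunits are encoded in mitochondrial DNA and are not among the members. Of the 10 genes of generally expressed subunits 2 had a peak (20%, 2.52% to 55.6%), and of the 7 genes of tissue isoforms 0 (up to 41.0%).

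Cox4i1, the general isoform of subunit IV, which takes part in the regulation of the oxidase by ATP (ENSMUSG00000031818.12), had 5 peaks on exons 2 and 3. In exon 3 the peaks lay at chr8:120672679-120672778 for IGF2BP2 (pileup 5, fold 5.84), chr8:120672720-120672871 for YTHDF2 (pileup 7, fold 7.29) and chr8:120672630-120672870 for YTHDC1 (pileup 6, fold 6.01). At exon 2 a YTHDF2 peak (pileup 5, fold 5.47) and a YTHDC1 peak (pileup 8, fold 7.73) ended at the same base, 120669473. The YTHDC1 summit of this pair lay 3 bp from the YTHDF2 summit, just past the end of exon 2 of the main transcript. On the spliced mRNA the 4 exonic summits lay 72 to 132 nt after the start of the coding sequence, so the peaks of the 2 exons are neighbours on the mRNA although an intron separates them in the genome. The read-through gene Gm20388 covers the same exons.

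Cox7a2l, known as a factor that joins complexes III and IV into supercomplexes (ENSMUSG00000024248.14), had its 3 peaks in the 3′ UTR in exon 4 of 4. They lay at chr17:83502253-83502362 for IGF2BP2, chr17:83502255-83502365 for YTHDF2 and chr17:83502189-83502364 for YTHDC1. The pileup was 14 in the IGF2BP2 list, 13 in the YTHDF2 list and 35 in the YTHDC1 list, the last being the highest of all 46 member peaks. The fold was 13.6 in the YTHDC1 list, against 7.59 in the IGF2BP2 list and 7.48 in the YTHDF2 list. In the order IGF2BP2, YTHDF2 and YTHDC1, the summits lay 303, 300 and 331 nt past the stop codon. Cox5b, the zinc-binding subunit, had a YTHDF2 peak at chr1:36691617-36691742 (pileup 4, fold 4.94) and a YTHDC1 peak at chr1:36691591-36691731 (pileup 4, fold 4.91) in exon 1. Their summits lay 3 bp apart, and their windows match Gm11273 over 50 nt exactly, in which no list has a peak.

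Complex V, the ATP synthase, had peaks in 5 of its 18 genes (27.8%, 9.69% to 53.5%), against 23.9% of all genes. By reader these were 4 with IGF2BP2, 2 with YTHDF2 and 4 with YTHDC1. Of the 5 genes of the catalytic F1 head the α subunit Atp5a1 and the β subunit Atp5b had peaks of all 3 readers and the other 3 had none. For any reader and for all 3 the share of the head was 40% (5.27% to 85.3%), against 23.9% and 5.02% of all genes. Atp5a1 (ENSMUSG00000025428.15) held the most of the 46 peaks, 9, and had the highest fold among the member peaks of each list.

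In exon 3 of Atp5a1, IGF2BP2 had a peak with a pileup of 20 and a fold of 18.7 at chr18:77777544-77777779. The YTHDF2 peak there, at chr18:77777544-77777774, had a pileup of 15 and a fold of 12.4, and the YTHDC1 peak, at chr18:77777520-77777779, a pileup of 22 and a fold of 17.3. In exon 4 the peaks lay at chr18:77778395-77778856 for IGF2BP2 (pileup 20, fold 18.7), chr18:77778406-77778660 for YTHDF2 (pileup 13, fold 12.8) and chr18:77778397-77778687 for YTHDC1 (pileup 29, fold 25.8). In each list the highest folds among these genes thus lay on the same pair of exons, while the highest YTHDC1 pileup was that of Cox7a2l.

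Weaker peaks lay upstream in Atp5a1. YTHDC1 had one in exon 2 (pileup 4, fold 4.77) and one in the 5′ UTR of an alternative transcript (pileup 8, fold 6.77), and YTHDF2 had one with an intronic summit (pileup 5, fold 5.83). The 7 summits in the main transcript lay between 136 and 340 nt after the start of a coding sequence of 1662 nt, a span of 204 nt across 3 exons. Within their own lists the exon 3 and exon 4 peaks stood at fold percentiles of 94.0 and 94.0 (IGF2BP2), 91.7 and 92.4 (YTHDF2), and 93.4 and 97.4 (YTHDC1).

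Atp5b, the catalytic β subunit (ENSMUSG00000025393.12), had 3 weaker peaks further along its coding sequence. The IGF2BP2 peak at chr10:128085436-128085674 (pileup 4, fold 4.87) overlapped the YTHDF2 peak at chr10:128085368-128085592 (pileup 4, fold 4.90) in exon 5, with summits 72 bp apart. The YTHDC1 peak at chr10:128085139-128085268 lay in exon 4 with a pileup of 10 and a fold of 10.5 and overlapped neither. Both catalytic-head genes were thus in all 3 lists, but the readers' peaks coincided in Atp5a1 and only partly in Atp5b.

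Atp5h, subunit d of the peripheral stalk, had an IGF2BP2 peak in exon 3 (pileup 4, fold 4.88) and YTHDC1 peaks in exon 4 (pileup 6, fold 6.79) and exon 6 (pileup 8, fold 7.73). All 3 Atp5h windows match the pseudogene Gm10250 over 50 nt exactly, and no list has a peak in it. Atp5j, coupling factor F6 of the stalk, had an IGF2BP2 peak in its 5′ UTR at chr16:84835420-84835536 (pileup 6, fold 6.24). The same summit lies in the divergent gene Gabpa, so the peak cannot be given to either gene alone. Atp5g3, which encodes the c subunit of the membrane ring, had a YTHDC1 peak 21 nt after the start of its coding sequence (pileup 3, fold 3.81), the lowest fold of the set. The genes of the other c subunits, Atp5g1 and Atp5g2, which encode the same mature protein, had none.

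**Figure D2:**
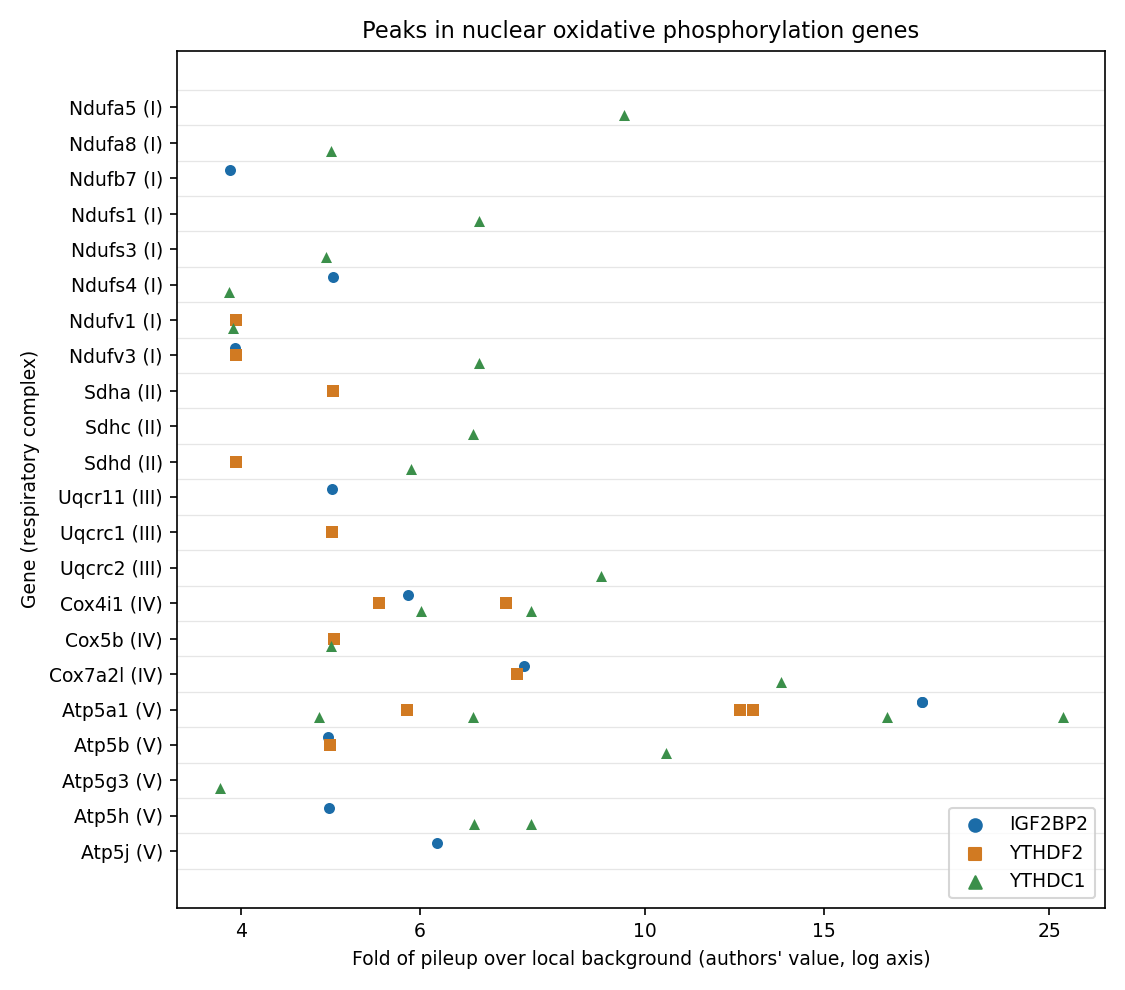
Fold of pileup over local background for the 46 peaks in the 22 oxidative phosphorylation genes with a peak, by gene and complex, coloured by reader; the 2 IGF2BP2 peaks of Atp5a1 coincide at 18.7. Atp5a1 reaches 25.8 in the YTHDC1 list, Cox7a2l 13.6 and Atp5b 10.5, while most other genes lie between 3.81 and 9.53.

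By readers, the 22 genes divided into 5 with all 3, 5 with a pair and 12 with a single reader. YTHDC1 alone was the most frequent pattern, with 7 genes, Atp5g3, Ndufa5, Ndufa8, Ndufs1, Ndufs3, Sdhc and Uqcrc2 (31.8% of the 22, against 39.7% of the 4977 protein-coding genes with a peak). IGF2BP2 alone had 3 genes (13.6%, against 11.8%) and YTHDF2 alone 2 (9.09%, against 2.67%). IGF2BP2 with YTHDC1 had 2 genes, Atp5h and Ndufs4 (9.09%, against 18.3%). YTHDF2 with YTHDC1 had 3, Cox5b, Ndufv1 and Sdhd (13.6%, against 4.12%), and IGF2BP2 with YTHDF2 had 0, against 2.35%. All 3 readers together had 5 (22.7%, against 21%). With 22 genes, each of these differences rests on at most 3 genes.

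The 22 genes held 11 IGF2BP2, 13 YTHDF2 and 22 YTHDC1 peaks. The median pileup was 4 in the IGF2BP2 list, 4 in the YTHDF2 list and 6 in the YTHDC1 list, against 5, 5 and 6 for peaks in other protein-coding genes. The median fold was 4.93 for IGF2BP2 (3.90 to 18.7), against 5.92 in other genes, and 4.94 for YTHDF2 (3.96 to 12.8), against 5.47. It was 6.78 for YTHDC1 (3.81 to 25.8), against 6.03. Most member peaks were thus of ordinary strength for their list, and 20 of the 46 rested on a pileup of 4 or less while 11 had a pileup of 10 or more. The 11 peaks of high pileup came from Atp5a1, Atp5b, Cox7a2l and Uqcrc2.

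The local background behind each peak, computed as (pileup + 1) divided by fold, minus 1, differed between these genes. The smallest background in a list, its floor, was 0.0140 in the IGF2BP2 list, 0.0111 in the YTHDF2 list and 0.0189 in the YTHDC1 list. Of the 46 member peaks 29 lay at 1.00 to 2.61 times the floor, where the fold stays close to the pileup plus 1. The other 17, in Atp5a1, Cox4i1, Cox7a2l, Atp5h, Atp5j and Uqcrc2, lay at 8.69 times the floor or a whole multiple of that, with a largest deviation of 0.000535 from a whole number. With a cut between 2.61 and 8.69 times the floor, the upper group held 31.2% (IGF2BP2), 40.6% (YTHDF2) and 45.9% (YTHDC1) of each list. Within that group 88.4%, 88.9% and 92.8%, in that order, lay within 1% of a whole multiple of 8.69. The steps are thus a feature of the lists and do not set these genes apart. Cox7a2l was at 69.5, 78.2 and 86.9 times the floor and Uqcrc2 at 52.1 times, so their high pileups give moderate folds. Where the background is high, the fold of a peak therefore ranks genes differently from the pileup.

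**Figure D3:**
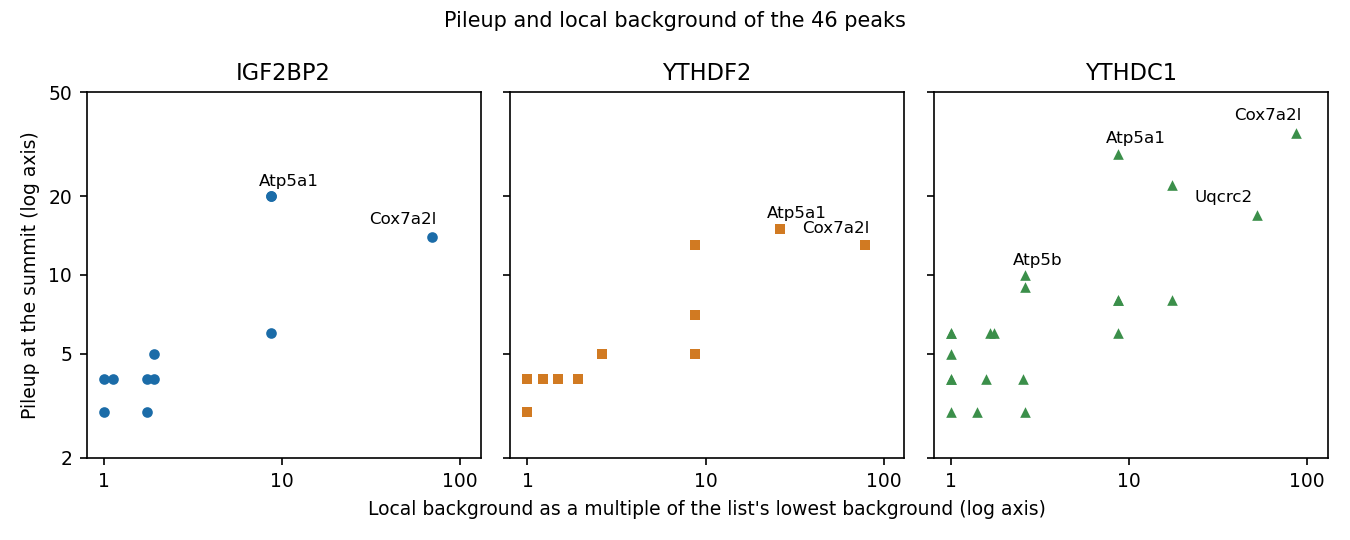
Pileup at the summit against local background in multiples of the floor of each list, both on log axes, for the 46 member peaks by reader. Most peaks lie at 1.00 to 2.61 times the floor with a pileup under 10, the Atp5a1 peaks rise to a pileup of 29, and the Cox7a2l peaks stand apart at 69.5 to 86.9 times the floor.

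Most summits lay in coding sequence of the main transcript, 33 of 46, with 1 in a 5′ UTR, 4 in a 3′ UTR and 8 in introns. For YTHDC1, 15 of 22 summits were in coding sequence (68.2%, 45.1% to 86.1%), against 35.6% (34.5% to 36.7%) in other protein-coding genes, and 5 of 22 in introns (22.7%, 7.82% to 45.4%), against 45.5%. For IGF2BP2, 8 of 11 were in coding sequence (72.7%, 39.0% to 94.0%), against 61.9%. For YTHDF2 the count was 10 of 13 (76.9%, 46.2% to 95%), against 61.3%. The YTHDC1 interval lies above the share of other genes, and those of IGF2BP2 and YTHDF2 include it. Gene length moves with the YTHDC1 contrast, and its part was not tested. The members had a median length of 7760 bp, and those with a peak of any reader 9244.5 bp. All protein-coding genes had a median of 17629 bp and genes with a YTHDC1 peak 35324 bp. When the UTRs of any annotated transcript took precedence, the coding share for YTHDC1 was 54.5% (32.2% to 75.6%), against 31.5%. For IGF2BP2 it was then 63.6% (30.8% to 89.1%), against 53.8%. For YTHDF2 it was 46.2% (19.2% to 74.9%), against 54.0%, so the direction for YTHDF2 depended on the region order.

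**Figure D4:**
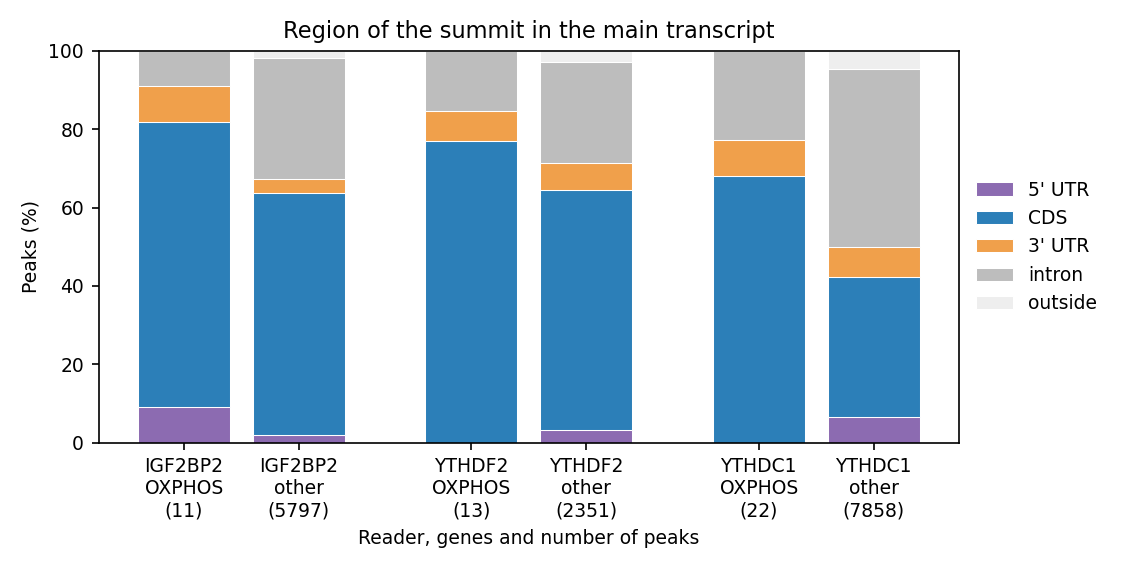
Percent of peak summits by region of the main transcript for each reader, for oxidative phosphorylation genes (left bar of each pair) and other protein-coding genes (right bar). Coding sequence holds 68.2% of the YTHDC1 summits in oxidative phosphorylation genes, against 35.6% in other genes, and 72.7% against 61.9% for IGF2BP2.

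Within the coding sequence the summits lay towards the start. Of the 33 coding summits, in 15 genes, 29 lay in the first 50% of the coding sequence (87.9%, 71.8% to 96.6%), against 57.0% of 7828 summits in other protein-coding genes. The median position was 20.3% of the coding length, against 43.1%. By reader the count was 7 of 8 for IGF2BP2 (median 19%, against 42.3% in other genes) and 9 of 10 for YTHDF2 (21.8%, against 44.4%). For YTHDC1 it was 13 of 15 (20.5%, against 43.8%). The direction was the same in each list, though the lists share sites and genes. The interval counts each summit separately, also the 7 of Atp5a1, which lie within 204 nt.

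Atp5a1 gave 7 of these 33 summits, and without it 22 of 26 lay in the first 50% (84.6%, 65.1% to 95.6%; median 25%). Among genes of 595 to 1436.25 nt the count was 12 of 15 (80%, 51.9% to 95.7%), against 60.5% of 372 summits in other genes of that length, a difference inside the interval. At that length the YTHDC1 median over 8 summits was 34.7%, against 39.8% in other genes. For YTHDF2 it was 21.8% over 4, against 42.8%, and for IGF2BP2 18.1% over 3, against 40.1%. The 4 coding summits past the midpoint were those of Ndufa5, Ndufb7, Ndufv1 (YTHDF2) and Atp5h (YTHDC1, exon 6). These position measures were chosen after the summits had been seen.

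**Figure D5:**
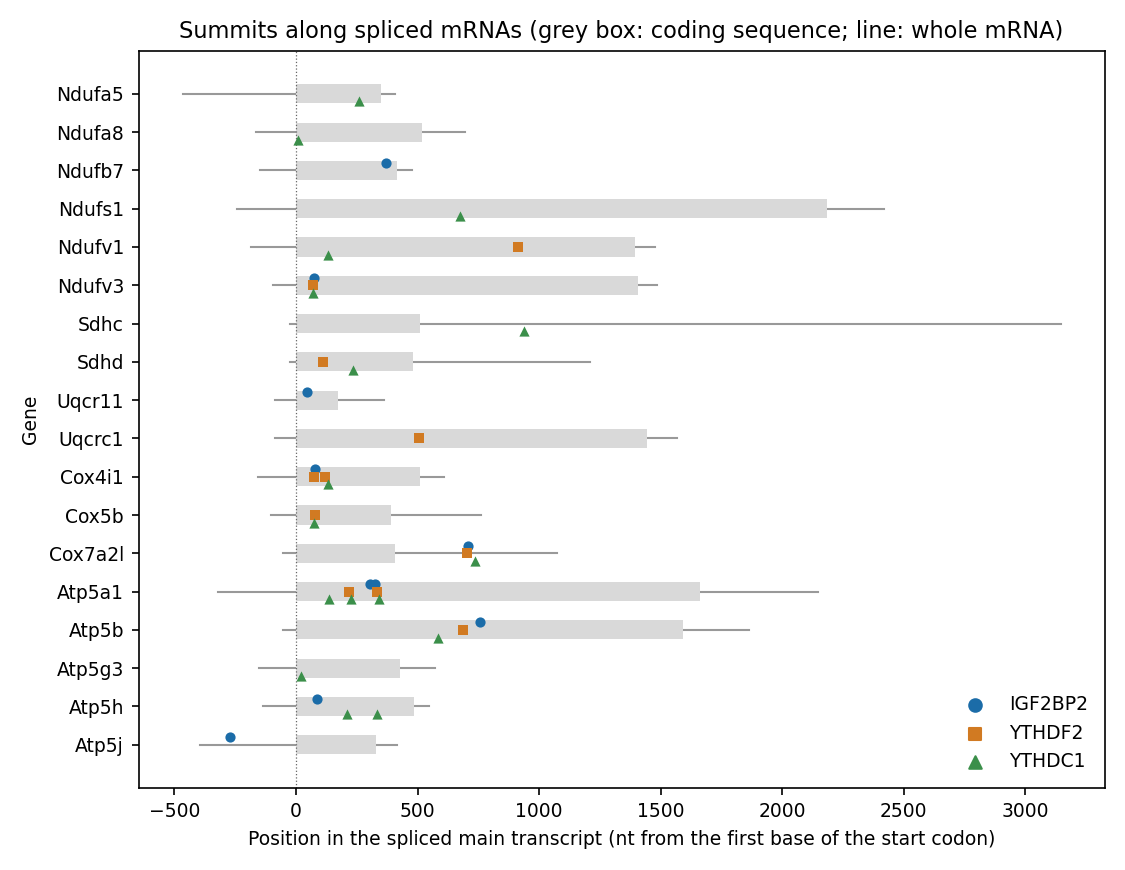
Position of the 38 exonic summits relative to the start codon on the spliced main transcript (nt), by gene, coloured by reader. The Atp5a1 summits cluster between 136 and 340 nt, those of Ndufv3 and Cox4i1 lie within 132 nt of the start codon, and those of Cox7a2l lie at 704 to 735 nt in the 3′ UTR.

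The 38 exonic summits fell into 23 sites in 18 genes when summits up to 100 nt apart on the spliced mRNA were joined. Of these sites 4 held all 3 readers (Atp5a1, Cox4i1, Cox7a2l and Ndufv3), 2 held a pair (Atp5b and Cox5b) and 17 a single reader. The Atp5b pair leaves out its YTHDC1 summit at 583 nt into the coding sequence, just over 100 nt from the YTHDF2 summit at 685 nt. Other joining distances were not tried. The sites of Atp5a1 and Cox4i1 each spanned several exons. Exons under the summits had a median of 169 nt, the summits lay a median of 29 nt from an exon end, and 28 of the 38 peaks crossed one. The same was not counted for peaks in other genes, so these values do not set the members apart. The 23 sites pool the 3 readers and leave out the 8 summits in introns of the main transcript. The count of 46 peaks is therefore not a count of separate sites on mRNA.

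Peaks of different readers overlapped by at least 1 bp in 19 pairs, in 6 genes, with summits a median of 11 bp apart (1 to 87 bp). Of the IGF2BP2 peaks 6 of 11 overlapped a peak of another reader (54.5%, 23.4% to 83.3%), against 45.8% in other protein-coding genes. For YTHDF2 it was 9 of 13 (69.2%, 38.6% to 90.9%), against 80%, and for YTHDC1 8 of 22 (36.4%, 17.2% to 59.3%), against 31.6%. Each interval includes the share of other genes. Without Atp5a1, the share was 44.4% for IGF2BP2 and 27.8% for YTHDC1, below the 45.8% and 31.6% of other genes. Of the 46 peaks 23 overlapped no peak of another reader, among them each of the peaks of Sdhd, Ndufv1, Ndufs4 and Atp5h, genes that 2 lists hold at different places.

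The motif GGAC, read on the strand of the gene within 50 nt of an exonic summit, was present at 4 of 10 IGF2BP2 summits (40%, 12.2% to 73.8%), against 42.7% of exonic summits in other genes. It was present at 5 of 11 YTHDF2 summits (45.5%, 16.7% to 76.6%), against 41.7%, and at 4 of 17 YTHDC1 summits (23.5%, 6.81% to 49.9%), against 42.4%. Counted on both strands it was present at 8, 7 and 8 summits (80%, 63.6% and 47.1%), against 56.1%, 57.0% and 59.4%. The longer GGACT, which contains GGAC, was present on the gene strand at 2, 1 and 3 (20.0%, 9.09% and 17.6%), against 10.8%, 12.0% and 12.1%. The intervals for GGAC include the shares of other genes, and a match is a description of the letters only.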

How the data were processed

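Peak lists of 3 immunoprecipitates, 1 library each, were used. The submitters' processing notes name HISAT2, Trim Galore and bcl2fastq 2.17, and the build GRCm38; the peak caller is not given in the sources used here. Every deposited peak has a fold (pileup over local background, taken here with 1 added to both), −log10 p and q values, a summit offset and a length in bp. The deposited score is the −log10 q multiplied by 10 and made whole, as found by comparing the columns. The pileup signal at the summit is named per the file headers, with no normalization stated. These are the authors' values, used only inside their own list.

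A peak was assigned to the gene under its summit (column 2 plus column 10), with exons ahead of introns and coding genes ahead of others; the lists give no strand, so overlapping genes are uncertain. Regions were read in the longest complete coding transcript, or over all transcripts with UTRs first where said so. The background was computed with an assumed pseudocount of 1. Shares have exact binomial 95% intervals. Assignment was tested on simulated summits. Python 3.11.15, pandas 2.3.3, numpy 2.4.6, scipy 1.17.1 and matplotlib 3.10.9 were used. Genes with peaks in all 3 lists, the 5 highest folds per reader and the highest fold per complex were described in depth and other bound members named. The members and lists were chosen with earlier results of these data known. The input was not analysed here. The alternatives were thresholds on −log10 q, fold and pileup, equal list length, exonic or unambiguous summits, structural subunits, region order, overlap rules, window length and leaving out Atp5a1.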

Additional observations from a re-analysis of the deposited data

How the results depend on the processing

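Of the values recomputed under alternatives, 136 stayed within their limits, and 37 did not. Fewer peaks are left by construction at a fold of at least 5, and likewise at a pileup of at least 5: there 4 genes (5 peaks) remained for IGF2BP2, 3 (6 peaks) for YTHDF2 and 11 for YTHDC1, and 3 genes were in all 3 lists. At both thresholds the median pileup was 14 for IGF2BP2 and 10 for YTHDF2, and the median IGF2BP2 fold 7.59. With each list cut to its 2834 peaks of highest −log10 q, 1 gene (2 peaks) remained for IGF2BP2 and 5 (6 peaks) for YTHDC1, and 1 gene, Atp5a1, was in all 3 lists. The median pileup was then 20 and 19.5 and the median fold 18.7 and 12.0 for IGF2BP2 and YTHDC1; 100% of the IGF2BP2 peaks lay in coding sequence and 100% overlapped another reader, as did 23.1% of the YTHDF2 peaks. Within the members' length range, 4.53%, 3.22% and 8.70% of all genes had a peak of IGF2BP2, YTHDF2 and YTHDC1. With coding sequence before UTRs, 76.9% of YTHDF2 peaks were coding, and with UTRs first 46.2%. Windows of 100 bases on each side held GGAC at 80%, 81.8% and 70.6% of IGF2BP2, YTHDF2 and YTHDC1 summits, against 66.7%, 65.7% and 66.5% in other genes. Longer windows hold more by construction. The direction against other genes for IGF2BP2 and YTHDC1 depended on the window, and each interval included the share of other genes. Leaving out Atp5a1, added after seeing the data, moved no value past its limit, but the overlap with another reader turned from above to below that of other genes: 44.4%, against 45.8%, for IGF2BP2 and 27.8%, against 31.6%, for YTHDC1. With UTRs first, the YTHDC1 coding share without Atp5a1 was 55.6% (30.8% to 78.5%). That interval included the 31.5% of other genes. No paired analysis was possible because each reader has 1 library. Depth is unknown, and 20 of 46 peaks rest on a pileup of 4 or less.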

Other observations

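Other genes of mitochondrial function were set beside the oxidative phosphorylation genes as lists, with no test; of all protein-coding genes, 12.8% had a peak of IGF2BP2, 7.20% of YTHDF2 and 19.9% of YTHDC1. Assembly factors of the complexes had peaks in 1 (IGF2BP2), 1 (YTHDF2) and 6 (YTHDC1) of 41 genes (2.44%, 2.44% and 14.6%, the last with an interval of 5.57% to 29.2%), led by Uqcc3 (YTHDC1 fold 12.7) and Ttc19 (10.6), both of complex III assembly. Proteins of the mitochondrial ribosome had peaks in 2, 2 and 8 of 78 genes (2.56%, 2.56% and 10.3%). Of 13 protein genes of the mitochondrial genome 1, mt-Co1, had a YTHDC1 peak, with a fold of 2.03. Enzymes of the citric acid cycle and linked steps had peaks in 4, 1 and 8 of 18 genes (22.2%, 5.56% and 44.4%, the last 21.5% to 69.2%), and Cs, citrate synthase, was in all 3 lists with folds of 8.91, 7.29 and 11.2. Import genes had peaks in 4, 2 and 8 of 22 (18.2%, 9.09% and 36.4%, the last 17.2% to 59.3%), among them the receptor Tomm22 (10.5, 6.70 and 12.9) and the chaperone Hspa9 (5.92, 8.90 and 12.7). Regulators of mitochondrial gene expression had peaks in 5, 3 and 6 of 16 (31.2%, 18.8% and 37.5%, the last 15.2% to 64.6%), with Lrpprc, an RNA-binding protein of mitochondria, at 4.93, 4.94 and 10.0.

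Genes of the cytosolic ribosome and of glycolysis were counted in the same way, again with no test of a difference. Cytoplasmic ribosomal protein genes, with a median spliced length of 882 nt, against 787 nt for the oxidative phosphorylation genes, had peaks in 36 (43.9%), 30 (36.6%) and 42 (51.2%) of 82 genes for IGF2BP2, YTHDF2 and YTHDC1. Rpl3 had folds of 47.7, 41.1 and 42.9. Glycolysis genes, which are longer (median 2229.5 nt), had peaks in 11 (57.9%), 7 (36.8%) and 12 (63.2%) of 19, and Pkm, pyruvate kinase, had folds of 36.7, 15.5 and 25.8. Transcript abundance was not measured.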
